A study of Mus musculus with 9 samples.

Results

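Glis3 peaks at one-direction promoters are the 9255 of 21254 peaks (43.5%) whose midpoint lay within 1 kb of the 5′ end of genes on a single strand. The 5′ end of a gene is the end of its span in the deposited gene table at which transcription starts, and each peak is a 200 bp interval. Another 1363 peaks (6.41%) lay within 1 kb of 5′ ends on both strands and are called divergent here, 5994 (28.2%) lay inside genes and 4642 (21.8%) lay between genes. Binding was mapped by chromatin immunoprecipitation with an antibody against GFP in islets taken from Glis3-eGFP mice at 8 weeks of age, whose Glis3 carries a fluorescent tag, and gave 1 peak list with no replicate and no score per peak. Expression was measured by RNA sequencing in hand-picked islets of 4-week-old mice: 4 control mice (Glis3fl/fl, both Glis3 alleles carrying recombination sites) and 3 mice labelled knockout (Pdx1-Cre;Glis3fl/fl, with the recombinase driven by the Pdx1 promoter). All 7 RNA libraries carry the floxed alleles, and no group had Pdx1-Cre alone, so the driver and the deletion cannot be told apart. Binding and expression came from different mice of different ages. The comparison asks which genes with a Glis3 peak at the promoter differ in expression between these groups.

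Glis3 is a Krüppel-like zinc finger transcription factor related to the Gli proteins, and in the pancreas it is known as a regulator of insulin gene transcription and of endocrine cell formation. The names one-direction and divergent refer here only to the strands of the 5′ ends in the gene table near the peak. The direction of transcription at these promoters was not measured. Many mammalian promoters, above all those of genes used in most cells, lie in CpG islands, stretches rich in G, C and the dinucleotide CG. Promoters of genes used in a single tissue often lack them.

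Hormone genes of the islet were abundant: on average Ins2 stood at 272484 CPM (counts scaled to a library of 1000000, with TMM factors that align the bulk of genes) in the controls and 90319 CPM in the labelled knockouts, Gcg at 51733 and 41576 CPM, and Sst at 7522 and 8202 CPM. Total counts were 18297697 to 48054551 per control library and 12099365 to 22578480 per labelled knockout library. Markers of other pancreatic cells were also present: the summed level of 23 acinar marker entries was 802 to 5019 CPM in the controls and 2508 to 14084 CPM in the labelled knockouts. The 8 duct markers summed to 432 to 464 CPM against 1038 to 1332 CPM, and 14 endothelial, stromal and myeloid markers to 625 to 705 CPM against 731 to 959 CPM. None of the acinar and none of the 14 vessel, stromal and myeloid markers had a peak at a one-direction promoter, and 3 of the 8 duct markers did (Krt7, Krt19 and Sox9). Xist, transcribed in female cells, stood above 230 CPM in controls 1 and 2 and labelled knockouts 1 and 2, and under 0.5 CPM in the other 3. With Xist as a covariate, 636 linked genes were lower and 745 higher, against 551 and 646 without it. What part the marker levels have in the results was not tested. In whole islets, fewer cells of a type and less RNA per cell cannot be told apart.

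The stretches of peak upstream of the 5′ end are printed for 8 linked genes whose expression differed between the groups, chosen because their changes run both ways and because they span the range of promoter types. Each is read 5′ to 3′ on the strand of the gene from the RefSeq promoter sequences of build GRCm38.p6, up to the base given, and covers only the part of the peak that those sequences hold. Capitals mark matches on either strand to CCAAT (bound by NF-Y), GGGCGG (the GC box bound by Sp and Klf proteins) and TGACGTCA (the cyclic AMP response element).
Ins1, chr19:52264158-52264296, plus strand, 139 bases: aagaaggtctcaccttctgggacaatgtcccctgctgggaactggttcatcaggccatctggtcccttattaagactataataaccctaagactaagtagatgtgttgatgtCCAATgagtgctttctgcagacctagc
Iapp, chr6:142298224-142298423, plus strand, 200 bases: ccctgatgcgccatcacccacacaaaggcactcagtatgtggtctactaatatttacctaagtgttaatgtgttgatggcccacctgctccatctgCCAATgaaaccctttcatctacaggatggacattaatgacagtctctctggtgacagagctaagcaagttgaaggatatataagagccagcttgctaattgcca
Neurod1, chr2:79456765-79456886, minus strand, 122 bases: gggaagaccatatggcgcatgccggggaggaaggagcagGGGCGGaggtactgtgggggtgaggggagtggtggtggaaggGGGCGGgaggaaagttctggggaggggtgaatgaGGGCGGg
Isl1, chr13:116309803-116309938, minus strand, 136 bases: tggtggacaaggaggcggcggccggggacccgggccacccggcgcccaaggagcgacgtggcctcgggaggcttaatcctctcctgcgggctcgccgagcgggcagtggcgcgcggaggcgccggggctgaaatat
Pam, chr1:98095647-98095771, minus strand, 125 bases: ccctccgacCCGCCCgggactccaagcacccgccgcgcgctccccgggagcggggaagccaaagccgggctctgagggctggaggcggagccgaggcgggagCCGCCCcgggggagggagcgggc
Pdia4, chr6:47813513-47813665, minus strand, 153 bases: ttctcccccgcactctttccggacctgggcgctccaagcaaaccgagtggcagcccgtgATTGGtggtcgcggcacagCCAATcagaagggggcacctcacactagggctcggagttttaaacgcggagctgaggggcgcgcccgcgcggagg
Hist1h4h, chr13:23530922-23531043, plus strand, 122 bases: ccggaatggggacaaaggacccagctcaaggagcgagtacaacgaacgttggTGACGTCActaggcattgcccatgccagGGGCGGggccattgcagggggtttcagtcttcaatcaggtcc
Clstn2, chr9:98033168-98033349, minus strand, 182 bases: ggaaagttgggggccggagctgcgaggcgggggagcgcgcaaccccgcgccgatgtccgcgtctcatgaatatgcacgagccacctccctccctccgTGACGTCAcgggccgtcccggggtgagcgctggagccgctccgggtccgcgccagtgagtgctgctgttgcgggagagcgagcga
The 2 hormone genes stand apart in base composition, with no CG in the Ins1 stretch and 1 in the Iapp stretch. The Pam stretch held 16 CG in 125 bases and that of Clstn2 held 24 in 182 bases. Neurod1 had 3 matches to GGGCGG within its stretch, Pdia4 had 2 to CCAAT, and Isl1 had no match to any motif searched. Ins2 was not matched to a RefSeq promoter.

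Across the members, promoters with a peak were rich in CG. RefSeq gave a start at the same base as the gene table for 5877 of the 8575 linked genes (68.54%), and the following values cover the 250 bases before and 50 after those starts. Their median GC content was 62.3%, the median number of CG was 22, and the median ratio of observed to expected CG was 0.795. At 4182 tested genes with no peak within 1 kb, 2690 promoters could be read, with medians of 54% GC, 8 CG and a ratio of 0.421. A ratio of at least 0.6 with GC above 50%, a common definition of a CpG island, was met by 77.3% of promoters with a one-direction peak, 85.9% of those with divergent peaks only, and 27.9% of promoters of tested genes with no peak. By direction of expression the shares lay close together: 77% of promoters of linked genes lower in the labelled knockouts and 72.8% of those higher met that definition, against 78.8% of those with no call.

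**Figure D1:**
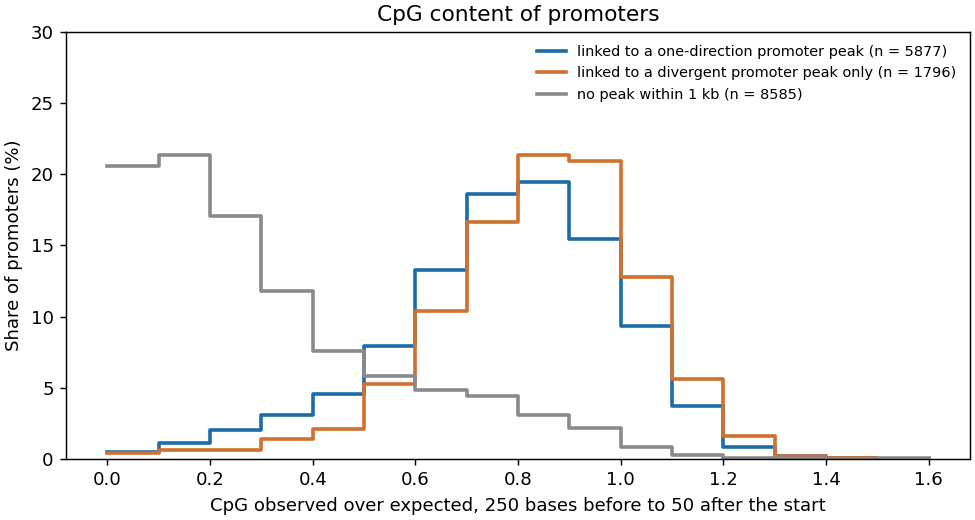
The ratio of observed to expected CG dinucleotides in promoters (250 bases before to 50 after the start) is on the horizontal axis and the share of promoters (%) per step of 0.1 is on the vertical axis. The blue line (one-direction peaks, n = 5877) and the orange line (divergent peaks only, n = 1796) lie to the right, with medians of 0.795 and 0.861, and the grey line (no peak within 1 kb, n = 8585) lies to the left, with a median of 0.242.

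Short motifs were counted by exact match on both strands, and are descriptions of letters, not of binding. The GC box GGGCGG was present in 71.8% of the 5877 promoters with a one-direction peak, against 45.6% of all 16258 promoters read and 40.9% of those of tested genes with no peak. CCGGAAGT, a site of Ets factors, was present in 7.96%, 5.21% and 3.27% in the same order. TGACGTCA was present in 3.69%, 2.34% and 1.26%, and GCGCATGCG, a site of Nrf1, in 4.15%, 2.35% and 1.3%. CACGTG, the E-box, was present in 10.97%, 7.95% and 7.18%, and AAGATGGCG, a site of YY1, in 2.74%, 1.87% and 1.52%. CCAAT was about as frequent in all, at 38.1%, 39.6% and 39.7%, and so was GTTGCCA, a part of the Rfx site, at 4.19%, 4.28% and 3.87%. The letters of the Gli and Glis core were rare in this window. GGGGGGT was present in 6.21%, 5.07% and 5.43%, and TGGGGGGT, which contains it, in 1.58%, 1.48% and 1.52%. CCTGGGAGG, part of a reported Glis3 site, was present in 1.65%, 1.44% and 1.38%. The letters of the Sp, Ets, cyclic AMP, Nrf1, E-box and YY1 sites each contain CG, and CCAAT and GTTGCCA do not; the number of CG per promoter differed in the same direction. Among the 552 peaks (5.96%) that lay wholly inside the window, GGGCGG was present in 64.1%, TGACGTCA in 5.07%, GGGGGGT in 5.43% and CCTGGGAGG in 1.81%, against 36.3%, 1.42%, 3.87% and 0.972% of all promoters over 200 bases. CCGGAAGT (7.43% against 2.45%), GCGCATGCG (3.44% against 1.39%), CACGTG (10.5% against 5.36%), TGGGGGGT (1.63% against 1.09%) and GTTGCCA (3.26% against 2.74%) were higher too. CCAAT (31.3% against 32.1%) and AAGATGGCG (0.544% against 0.621%) were not. These promoters include genes not tested, and those with no peak were not counted apart.

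Peaks lay mostly just inside the gene. The median offset of the midpoint was 109 bp downstream of the nearest 5′ end, with quartiles 37 bp upstream and 280 bp downstream. Downstream of the 5′ end lay 6525 peaks (70.5%), upstream 2709, and 21 had their midpoint on the 5′ end itself. A total of 2680 peaks (28.96%) lay within 100 bp of the 5′ end in either direction, 6343 (68.5%) within 300 bp, and 1335 (14.4%) beyond 500 bp. The densest 100 bp bins were those directly downstream, with 1733 peaks from 0 to 100 bp and 1689 from 100 to 200 bp, against 930 in the 100 bp directly upstream. Divergent peaks lay closer, with a median of 74 bp downstream, 42.99% within 100 bp and 6.16% beyond 500 bp. The distance between neighbouring starts bounds how far a divergent peak can lie from the nearest of them, so the offsets of both kinds are not on equal terms. The median offset was 98 bp for genes on the plus strand and 121 bp for genes on the minus strand.

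**Figure D2:**
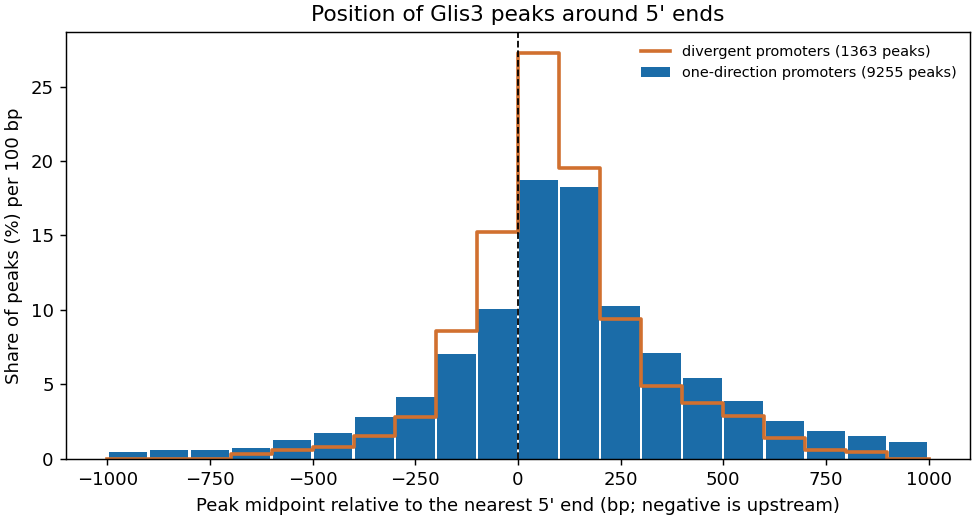
The distance of the peak midpoint from the nearest 5′ end (bp, negative upstream) is on the horizontal axis and the share of peaks (%) per 100 bp is on the vertical axis. Bars show the 9255 peaks at one-direction promoters and the line the 1363 at divergent promoters; both are highest from 0 to 100 bp downstream, at 18.7% for the bars.

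The offset differed little with the direction of expression. Where the nearest gene was lower in the labelled knockouts (632 peaks) the median was 124 bp, where it was higher (683 peaks) 127 bp, and where it had no call (7496 peaks) 107 bp. Peaks beyond 500 bp made up 20.7% of the first, 15.4% of the second and 13.4% of the last. The annotation matters at this scale: measured from the nearest RefSeq start of the linked gene, the median of 7243 peaks was 97 bp, against 109 bp from the gene table for the same peaks. At the border of the window, 56 peaks lay 951 to 1000 bp from a 5′ end, 19 upstream and 37 downstream, and 48 peaks lay 1001 to 1050 bp away and are not members. Of the 49 tested genes of the former 7 were lower and 1 was higher, and of the 42 of the latter 4 were lower and 2 were higher. Over all tested genes 5.25% were lower and 8.73% were higher.

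The members were linked to 8575 of the 25611 entries of the gene table (33.48%), by 9388 links: 9126 peaks had 1 gene within 1 kb, 125 had 2 and 4 had 3. A single member peak was found at 7773 linked genes (90.65%), 2 at 791 (9.22%) and 3 at 11 (0.128%). Where a gene had 2 peaks, their midpoints were a median of 725 bp apart, with quartiles of 640 and 874 bp. Genes with 3 peaks include Arid1b, a subunit of a chromatin remodelling complex, with midpoints 685 and 75 bp upstream and 718 bp downstream. Kat6a, a histone acetyltransferase, had midpoints 641 bp upstream and 29 and 638 bp downstream. Maz, a zinc finger protein of GC-rich promoters, had midpoints 897 bp upstream and 175 and 697 bp downstream. These 3 genes, Gpbp1 and 1190002N15Rik had no call, with log2 changes of -0.38, -0.36, -0.26, -0.33 and 0.03.

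By kind of transcript, peaks at one-direction promoters belonged to protein-coding genes. Of the 8571 linked entries matched to RefSeq, 8220 (95.9%) were protein-coding, which is 38.55% of the 21324 protein-coding entries. Of 2214 long noncoding RNA entries 204 (9.21%) were linked, of 1328 miRNA entries 91 (6.85%) and of 151 small nucleolar RNA entries 16 (10.6%). Small RNA genes often lie inside other genes, so a peak near one can lie at the promoter of its host.

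Among 25 gene classes, the share linked ran from 0 to 77.3%, against 33.48% of all entries. All entries include many too low to test, and of the 14529 tested genes 8081 were linked. Of tested members, 161 of 223 vesicle traffic genes and 54 of 81 ribosomal protein genes were linked. For islet transcription factor genes it was 14 of 25, and for mitochondrial ribosomal protein genes 37 of 78. Genes of general cell function were often linked: 163 of 236 vesicle traffic genes (69.07%), 68 of 101 translation factor and tRNA synthetase genes (67.3%), 99 of 150 proteasome and ubiquitin genes (66%), 58 of 88 genes of the splicing and hnRNP class (65.9%) and 55 of 85 ribosomal protein genes (64.7%). The highest share was that of endoplasmic reticulum folding genes, with 17 of 22 (77.3%). Classes chosen for islets had 18 of 25 secretory granule genes (72%), 15 of 24 beta cell genes, chosen for identity or glucose sensing (62.5%) and 15 of 28 islet transcription factor genes (53.6%). Zinc finger protein genes were linked in 255 of 469 cases (54.4%) and solute carrier genes in 153 of 385 (39.7%). Mitochondrial ribosomal protein genes were linked in 37 of 78 cases (47.4%), and a further 30 had a divergent peak only. At the low end stood histone genes with 25 of 93 (26.9%), genes named by prediction or clone with 348 of 3773 (9.22%), and olfactory and vomeronasal receptor genes with 2 of 1516 (0.132%). These receptors are scarcely expressed in islets: 6 of the 1516 had enough counts to be tested. Of the histone entries 39 were tested and 11 had a divergent peak only. Of the entries named by prediction or clone 853 were tested and 393 had a divergent peak only. Beta cell genes without a peak at a one-direction promoter include Slc2a2, the glucose transporter, Pdx1, G6pc2 and Pcsk1, and Pax6 among the transcription factors. Each of these classes had 1 entry with a divergent peak only, which is not named here, so lacking a one-direction peak does not mean lacking any promoter peak.

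**Figure D3:**
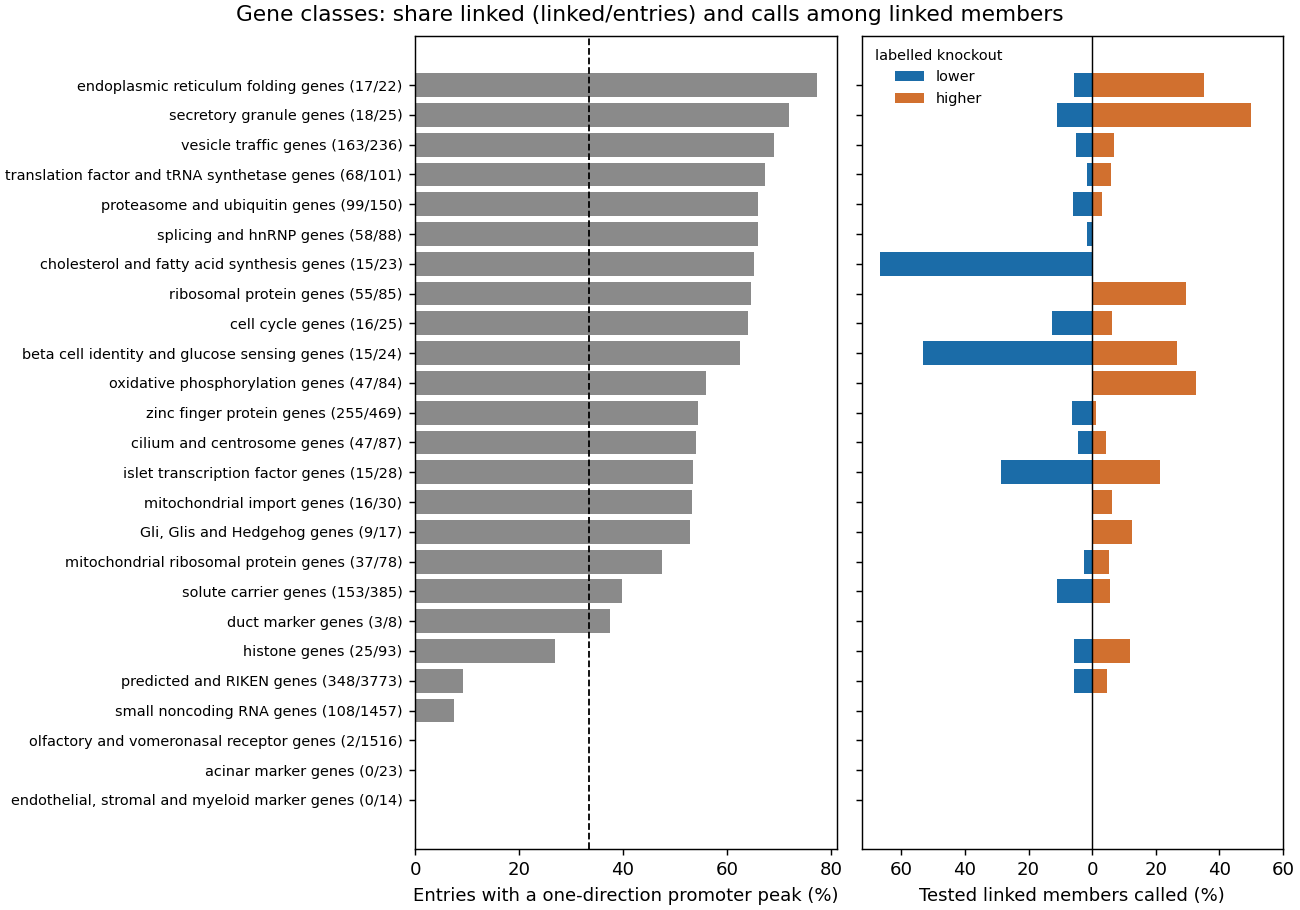
For each of 25 gene classes the left panel shows the share of entries with a one-direction promoter peak (%, with counts in brackets, the dashed line at 33.48% of all entries) and the right panel the share of tested linked members called lower (blue, to the left) or higher (orange, to the right) in the labelled knockouts. Cholesterol and fatty acid synthesis genes reach furthest to the left (10 of 15), secretory granule genes furthest to the right (9 of 18).

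Linked genes were expressed genes. Of the 8575, 8081 (94.24%) had enough counts to be tested, against 14529 of all 25611 entries (56.73%) and 4182 of the 14568 with no peak within 1 kb (28.7%). The middle linked gene stood at 22 to 22.5 CPM in each control and 20.95 to 21.5 CPM in each labelled knockout, and the top 10% began at 92.5 to 99.05 CPM and 97.6 to 98.3 CPM. Counts in linked genes were 73.9 to 76.3% of the control libraries (mean 75.3% ± 1.12, SD, n = 4) and 68.3 to 73.05% of the labelled knockout libraries (mean 70.2% ± 2.52, n = 3), with no overlap. Without Ins1, Ins2 and Iapp the shares were 56.98 to 59.9% and 59.99 to 61.7%.

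In the labelled knockouts 551 linked genes were lower (6.82% of those tested, where 5.25% of all tested genes were lower) and 646 were higher (7.99%, where 8.73% of all tested genes were higher), at an adjusted p under 0.05 with edgeR. Together 1197 linked genes (14.8%) were called, against 14.0% of all tested genes, so having a peak at a one-direction promoter went with about the same rate of calls as over all genes. The direction was more even: 46.03% of the calls at linked genes were lower, against 37.57% of all calls and 22.7% of those at genes with no peak within 1 kb. With library size alone in place of TMM, which moves the median log2 change of all genes to 0.175, 218 linked genes were lower and 982 higher, and the share of calls that were lower fell to 18.2% at linked genes and 14.9% over all. Changes of at least 2-fold were called lower at 132 linked genes (1.63%, where 1.50% of all tested genes were) and higher at 228 (2.82%, where 4.11% were). The median log2 change of linked genes was -0.05, with 80% of them between -0.55 and 0.57. Genes with no peak within 1 kb spread further, between -0.66 and 1.47, with 142 lower (3.4%) and 483 higher (11.6%) of 4182. Genes with divergent peaks only had fewer calls, 70 lower (3.09%) and 139 higher (6.13%) of 2266. Differences between these kinds of gene were not tested.

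**Figure D4:**
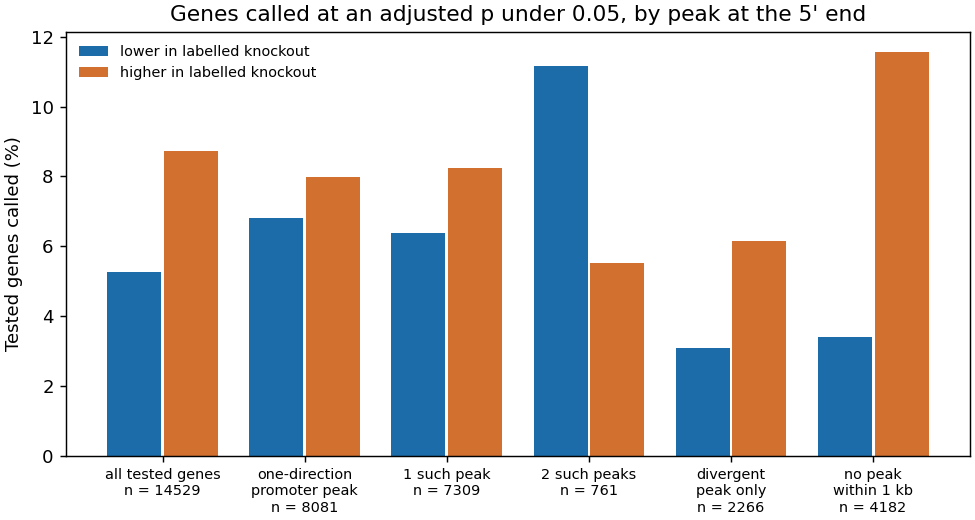
The share of tested genes (%) called lower (blue) or higher (orange) in the labelled knockouts is on the vertical axis, for all tested genes and for genes sorted by the peak at their 5′ end, with the number tested under each pair of bars. Genes with 2 one-direction peaks have the tallest blue bar (11.2%), genes with no peak within 1 kb the tallest orange bar (11.6%).

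Falls made up a larger share of genes with 2 member peaks than of genes with 1 with TMM factors but not with library size alone, and the difference was not tested. Of 761 tested genes with 2 peaks, 85 were lower (11.2%) and 42 were higher (5.52%), and of 7309 with 1 peak, 466 were lower (6.38%) and 603 higher (8.25%). Over all tested genes 5.25% were lower and 8.73% were higher. The counts at 2-peak genes moved with the settings: without control 2 there were 49 lower and 30 higher, at an adjusted p under 0.01 there were 27 and 27, and with library size alone 20 and 56. The share that was lower was then 6.45%, 3.55% and 2.63% of 2-peak genes, beside 4.56%, 2.97% and 2.71% of 1-peak genes. Distance made less difference: with the nearest peak within 100 bp, 163 of 2572 genes were lower and 186 higher, and with it 301 to 1000 bp downstream, 117 of 1540 were lower and 148 higher. Gipr, the receptor of the incretin GIP, had peaks 5 and 641 bp downstream, and stood at 69.4, 86.7, 67.3 and 56.2 CPM in the controls and 32.3, 34.6 and 30 CPM in the labelled knockouts. Each labelled knockout was below each control, with a log2 change of -1.11 ± 0.15 (SE, edgeR adjusted p = 0.000164). Hist1h4h, a gene for histone H4 with peaks 23 bp upstream and 544 bp downstream, stood at 6.72, 9.24, 10.6 and 8.33 CPM in the controls and 24.1, 22.3 and 30 CPM in the labelled knockouts. It rose, with a log2 change of 1.55 ± 0.19 (SE, edgeR adjusted p = 8.11e-05), and histone genes of this kind have near-identical copies among which reads can be split.

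Of the 551 linked genes that fell, 12 are described by the size of their fall. Kcnj12, an inward rectifier potassium channel with its peak 154 bp upstream, stood at 10.3, 12.4, 11.5 and 14.9 CPM in the controls and 0, 0.216 and 0.487 CPM in the labelled knockouts. Its fall was a log2 change of -5.52 ± 0.47 (SE, edgeR adjusted p = 4.09e-06), and labelled knockout 1 had no count, where 3 counts would be 0.223 CPM. Epha8, a receptor of ephrins, and Efnb3, an ephrin, both fell: Epha8 went from 2.9 ± 0.741 CPM (SD, n = 4) to 0.206 ± 0.211 CPM (n = 3), and Efnb3 from 25.1 ± 3.67 CPM (SD, n = 4) to 5.01 ± 1.9 CPM (n = 3). The log2 changes were -3.95 ± 0.69 and -2.30 ± 0.25 (edgeR adjusted p = 0.00164 and 2.93e-05). Adora1, an adenosine receptor, stood at 22.6, 20.9, 28.1 and 25.8 CPM in the controls and 4.75, 4.92 and 3.94 CPM in the labelled knockouts, a log2 change of -2.42 ± 0.19 (SE, edgeR adjusted p = 1.83e-06). Tmem215, a membrane protein whose peak lay 943 bp downstream, close to the border of the window, stood at 181, 193, 189.7 and 205 CPM in the controls and 30.9, 43.8 and 55.8 CPM in the labelled knockouts. Its fall was a log2 change of -2.14 ± 0.18 (SE, edgeR adjusted p = 2.9e-06). Kcnh3, a voltage-gated potassium channel, Pitpnm3 and Mreg fell by 2.83, 2.33 and 2.21 on the log2 scale. Rpp25, a subunit of an RNA-processing enzyme, and Pdp2, a phosphatase that acts on pyruvate dehydrogenase, had changes of -3.43 and -2.32. Lingo3 fell from 1.76 ± 0.791 CPM (SD, n = 4) to 0.072 ± 0.125 CPM (n = 3), with no count in labelled knockouts 1 and 3. St8sia1, a ganglioside sialyltransferase, had a log2 change of -2.88 ± 0.61 (SE, edgeR adjusted p = 0.0154), which moved to an adjusted p of 0.0918 without labelled knockout 1 and 0.0525 with no filter on low counts.

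The 12 largest rises were in genes with a mean of under 6 CPM in the controls. Nog, a secreted antagonist of bone morphogenetic proteins with its peak 604 bp downstream, stood at 0.0348, 0.0972, 0 and 0.239 CPM in the controls and 8.54, 16.2 and 10.2 CPM in the labelled knockouts. The controls together held 11 counts and the labelled knockouts 721, with a log2 change of 6.89 ± 0.53 (SE, edgeR adjusted p = 1.61e-06). Mdga1, a cell surface protein with peaks 417 bp upstream and 313 bp downstream, went from 0.299 ± 0.207 CPM (SD, n = 4) to 7.02 ± 3.93 CPM (n = 3), a log2 change of 4.46 ± 0.59 (SE, edgeR adjusted p = 0.000184). Zfp423, a zinc finger protein that interacts with bone morphogenetic protein signalling, stood at 1.25, 1.61, 0.913 and 0.67 CPM in the controls and 5.5, 37.2 and 27.1 CPM in the labelled knockouts. Labelled knockout 1 was far below the other 2 but above each control, with a log2 change of 4.33 ± 0.63 (SE, edgeR adjusted p = 0.00302). Lmo1, a transcriptional cofactor, stood at 2.23, 2.24, 2.07 and 3.16 CPM in the controls and 22.4, 29.6 and 29 CPM in the labelled knockouts, and Smoc1, a secreted matrix protein, stood at 6.69, 6.13, 5.66 and 4.79 CPM in the controls and 48.9, 48 and 55.8 CPM in the labelled knockouts. These were a log2 change of 3.48 ± 0.21 (SE, edgeR adjusted p = 2.24e-07) for Lmo1 and a log2 change of 3.12 ± 0.15 (SE, edgeR adjusted p = 5.06e-08) for Smoc1. Sct, the hormone secretin, rose from 0.526 ± 0.223 CPM (SD, n = 4) to 6.5 ± 1.38 CPM (n = 3), and Clstn2, a calsyntenin whose stretch with the cyclic AMP response element is printed above, from 1.35 ± 0.212 CPM (SD, n = 4) to 11.6 ± 1.12 CPM (n = 3). Brinp2, the Ras activator Rasgrp1, the secreted protein Ism1 and the kinase Stk33 rose by 3.52, 3.40, 3.38 and 3.26 on the log2 scale. Tnfrsf11b, a decoy receptor, stood at 3.52, 1.4, 0 and 0.287 CPM in the controls and 33.9, 27.4 and 22.9 CPM in the labelled knockouts, with a log2 change of 4.31 ± 0.93 (SE, edgeR adjusted p = 0.034). Its controls spread widely, and its call was lost without control 2 (0.117), control 4 (0.0507) or any labelled knockout (0.0633 to 0.0939).

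Of the 15 linked beta cell genes, all tested, 8 were lower, 4 were higher and 3 had no call, with a median log2 change of -0.78. The 9 beta cell genes without a one-direction peak had 4 lower, 2 higher and a median of -0.44. Here and below, genes without a one-direction peak include those with a divergent peak only, 1 of these 9. Both insulin genes fell: Ins2, its peak 170 bp upstream, stood at 240394, 208317, 291765 and 349459 CPM in the controls and 64374, 84872 and 121710 CPM in the labelled knockouts. Ins1, its peak 40 bp upstream, stood at 99611, 97061, 148401 and 169179 CPM in the controls and 35943, 43934 and 76569 CPM in the labelled knockouts. No labelled knockout reached the lowest control for Ins2 or Ins1, with a log2 change of -1.59 ± 0.23 (SE, edgeR adjusted p = 0.0004) for Ins2 and a log2 change of -1.30 ± 0.28 (SE, edgeR adjusted p = 0.00751) for Ins1; the genes are near-copies, so reads can be split between them. Iapp, the hormone amylin that is co-secreted with insulin, went the other way with its peak 102 bp upstream, and stood at 22930, 20480, 24385 and 28168 CPM in the controls and 87077, 72039 and 98532 CPM in the labelled knockouts. Its rise was a log2 change of 1.84 ± 0.16 (SE, edgeR adjusted p = 3.82e-06). Slc30a8, the zinc transporter of insulin granules, stood at 609, 571, 558 and 559.9 CPM in the controls and 298, 236 and 356 CPM in the labelled knockouts, and Sytl4, a regulator of granule docking, stood at 219, 241, 217 and 246 CPM in the controls and 57.6, 93.7 and 114 CPM in the labelled knockouts. In both the groups were far apart, with a log2 change of -0.95 ± 0.14 (SE, edgeR adjusted p = 0.000545) for Slc30a8 and a log2 change of -1.38 ± 0.19 (SE, edgeR adjusted p = 0.000239) for Sytl4. Prlr, the prolactin receptor, fell from 198 ± 50.7 CPM (SD, n = 4) to 98.2 ± 23 CPM (n = 3), a log2 change of -1.01 ± 0.21 (SE, edgeR adjusted p = 0.00567). Ccnd2, a cyclin of beta cell division, fell from 491 ± 18.6 CPM (SD, n = 4) to 286 ± 27.6 CPM (n = 3), a log2 change of -0.78 ± 0.12 (SE, edgeR adjusted p = 0.000609). Ero1lb, an oxidase that helps insulin fold, had a log2 change of -0.61 ± 0.15 (SE, edgeR adjusted p = 0.0159), which was lost without control 3 (0.0516) or without labelled knockout 1 (0.0885) or 2 (0.0504). The others that rose were the prohormone convertase Pcsk2, from 3452 ± 201 CPM (SD, n = 4) to 5823 ± 147 CPM (n = 3), the carboxypeptidase Cpe and the channel subunit Abcc8. Abcc8 had a log2 change of 0.55 ± 0.13 (SE, edgeR adjusted p = 0.0114), which without labelled knockout 1 became 0.0704. Glp1r (-1.04) and Ucn3 (-0.78) had no call. The Ucn3 groups overlapped, with a log2 change of -0.78 ± 0.25 (SE, edgeR adjusted p = 0.0642), which passed the threshold without control 1 (0.0281) or 2 (0.0497) or labelled knockout 3 (0.0207), with library size alone (0.0257), with limma-voom (0.0436) and with Xist as a covariate (0.00257). Glp1r had an edgeR adjusted p of 0.103, and 0.0375 without control 4 and 0.0213 with DESeq2.

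**Figure D5:**
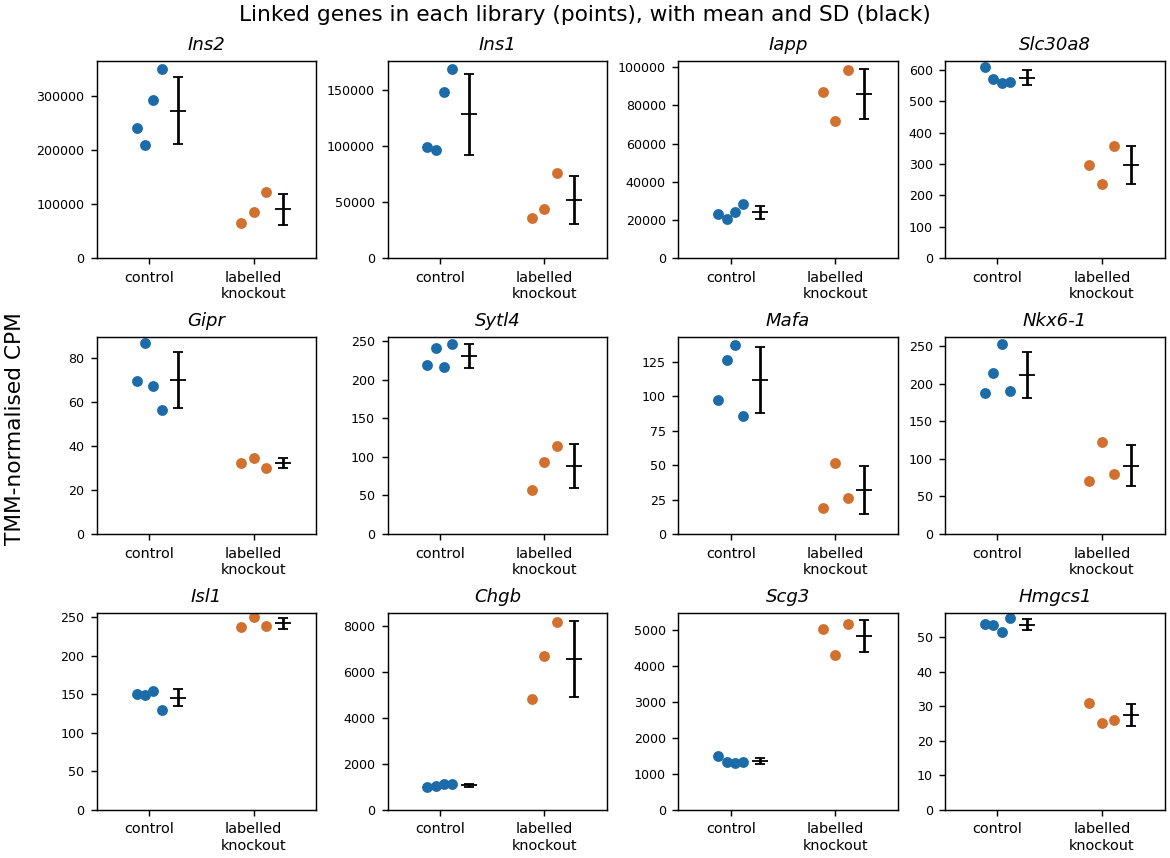
TMM-normalised CPM of 12 linked genes in each control library (blue points, n = 4) and each labelled knockout library (orange points, n = 3), with the mean and SD in black, every vertical axis starting at 0. Ins2, Ins1, Slc30a8, Gipr, Sytl4, Mafa, Nkx6-1 and Hmgcs1 are lower and Iapp, Isl1, Chgb and Scg3 are higher in the labelled knockouts. The groups overlap in none of the 12 panels, which all show called genes. Over all 14529 tested genes the groups did not overlap at 3864, and over the 8081 tested linked genes at 2291.

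Of the 14 tested linked islet transcription factor genes, 4 were lower, 3 were higher and 7 had no call. The 4 became 2 without labelled knockout 3 and with library size alone, and the 3 became 1 without control 4, labelled knockout 1 or labelled knockout 3. The 11 tested genes of the class without a one-direction peak had 2 lower and 0 higher. Their median log2 change was -0.28, beside -0.00 for the linked genes. In this class 1 entry, tested or not, had a divergent peak only. Nkx6-1, which maintains beta cell identity, had its peak 428 bp downstream and stood at 187, 214, 253 and 190.3 CPM in the controls and 70.9, 122 and 79.7 CPM in the labelled knockouts, a log2 change of -1.21 ± 0.18 (SE, edgeR adjusted p = 0.000535). Mafa, an activator of insulin transcription in mature beta cells, had its peak 695 bp downstream and stood at 97.4, 126, 137 and 85.8 CPM in the controls and 18.9, 51.6 and 25.8 CPM in the labelled knockouts. Its call, with a log2 change of -1.79 ± 0.35 (SE, edgeR adjusted p = 0.0135), was at 0.0503 without control 1. Isl1, a homeodomain factor of all endocrine cell types, had its peak 214 bp upstream and stood at 150, 148, 154 and 129.8 CPM in the controls and 237, 249.8 and 238 CPM in the labelled knockouts. It rose against the falls of Nkx6-1 and Mafa, with a log2 change of 0.73 ± 0.11 (SE, edgeR adjusted p = 0.000648). The calls of Neurod1, Rfx6 and Glis3 depended on single libraries. Neurod1 had a log2 change of -0.58 ± 0.16 (SE, edgeR adjusted p = 0.0264), with 0.0748 without control 3, 0.0551 without control 4, 0.111 without labelled knockout 1 and 0.0591 without labelled knockout 3, and 0.0796 with library size alone. Rfx6 had a log2 change of 0.45 ± 0.12 (SE, edgeR adjusted p = 0.0243), with 0.0599 without control 1, 0.069 without control 4, 0.0847 without labelled knockout 1 and 0.0612 without labelled knockout 3. Neurog3, the factor that starts endocrine development, had its peak 89 bp upstream and averaged 11.9 ± 2.79 CPM (SD, n = 4) in the controls and 2.59 ± 2.65 CPM (n = 3) in the labelled knockouts, with a log2 change of -2.13 ± 0.78 (SE, edgeR adjusted p = 0.126) and no call; its adjusted p was 0.00973 without labelled knockout 1 and 0.0364 without labelled knockout 2. Hnf4a, Insm1, Mnx1, Rfx3 and Tcf7l2 also had no call, and Foxa1 was too low to test.

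Glis3 itself had a peak 204 bp downstream of its 5′ end. It stood at 39.5, 46.8, 31.2 and 33.5 CPM in the controls and 52, 52.7 and 57.8 CPM in the labelled knockouts, so the labelled knockout libraries held more Glis3 counts than the controls. That was a log2 change of 0.52 ± 0.14 (SE, edgeR adjusted p = 0.0257), with 0.0945 without control 3, 0.085 without control 4, 0.0501 without labelled knockout 1 and 0.117 without labelled knockout 3. Counts cover the whole gene, and the labels do not say which exons are floxed, so this value does not check the deletion. Of the 8 tested linked genes of the Gli, Glis and Hedgehog class, Glis3 alone was called by edgeR with TMM factors. Glis1 averaged 4.55 ± 2.09 CPM (SD, n = 4) in the controls and 9.31 ± 1.5 CPM (n = 3) in the labelled knockouts, a log2 change of 1.04 ± 0.34 (SE, edgeR adjusted p = 0.057), and it passed the threshold without control 4 (0.0231), with library size alone (0.00996), with no filter on low counts (0.0406), with DESeq2 (0.0256), with limma-voom (0.0215) and with Xist as a covariate (0.0331). The Hedgehog receptor Ptch1, with peaks 277 bp upstream and 417 bp downstream, had a log2 change of -0.49 and no call.

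Secretory granule genes with a peak were more often higher than lower: of 18, 9 rose, 2 fell, among them Sytl4, and 7 had no call, with a median log2 change of 0.37. The 7 granule genes without a one-direction peak had 4 higher, 1 lower and a median of 0.38. Chgb, a granin that packs peptide hormones and had its peak 257 bp downstream, stood at 978, 1042, 1098 and 1131 CPM in the controls and 4829, 6682 and 8134 CPM in the labelled knockouts. Scg3, a granin-like protein that sorts cargo to granules, had its peak 85 bp downstream and stood at 1492, 1342, 1301 and 1336 CPM in the controls and 5039, 4320 and 5167 CPM in the labelled knockouts. Both rose in all 3 labelled knockouts far above any control, with a log2 change of 2.62 ± 0.16 (SE, edgeR adjusted p = 3.7e-07) for Chgb and a log2 change of 1.82 ± 0.12 (SE, edgeR adjusted p = 6.45e-07) for Scg3. Pam, the enzyme that amidates peptide hormones, stood at 541, 501, 457 and 459 CPM in the controls and 1288, 1185 and 1057 CPM in the labelled knockouts, a log2 change of 1.26 ± 0.12 (SE, edgeR adjusted p = 1.22e-05). Ptprn, a granule membrane protein, rose from 669.7 ± 114 CPM (SD, n = 4) to 1831 ± 431 CPM (n = 3), and Scg5, a chaperone of Pcsk2, from 718 ± 88 CPM (SD, n = 4) to 1241 ± 151 CPM (n = 3). Snap25, a vesicle fusion protein, rose by 0.54 on the log2 scale, while Vamp2 (0.26), Rab3a (0.32) and Unc13a (0.21) had no call. Rab3a passed the threshold with library size alone (edgeR adjusted p = 0.0328). Ptprn2 had a log2 change of 0.42 ± 0.11 (SE, edgeR adjusted p = 0.0216), with 0.0601 without control 2, 0.0617 without control 3, 0.0882 without labelled knockout 1 and 0.0587 without labelled knockout 2.

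Further genes of the secretory pathway with a peak were called. Tmed3, a cargo receptor between the endoplasmic reticulum and the Golgi, had its peak 127 bp downstream and stood at 282, 324, 371 and 377 CPM in the controls and 1154, 990.1 and 1069 CPM in the labelled knockouts. Sec11c, a subunit of the signal peptidase, stood at 94.4, 91.4, 129 and 136 CPM in the controls and 272, 274 and 322 CPM in the labelled knockouts. Neither gene overlapped between groups, with a log2 change of 1.66 ± 0.13 (SE, edgeR adjusted p = 2.48e-06) for Tmed3 and a log2 change of 1.36 ± 0.16 (SE, edgeR adjusted p = 5.02e-05) for Sec11c. Over the whole vesicle traffic class, however, 8 of 161 tested linked genes were lower and 11 were higher. These counts lay near the shares over all tested genes (5.25% lower and 8.73% higher). Rab43 fell by 1.14 on the log2 scale. The 11 became 7 without control 2 or labelled knockout 3, and with library size alone the counts were 3 and 16. Of 17 linked endoplasmic reticulum folding genes, 6 were higher and 1 was lower, with 10 without a call and a median log2 change of 0.34. That median was 0.07 without control 1, 0.6 without control 3, 0.53 without labelled knockout 1 and 0.21 without labelled knockout 2, and 0.56 with library size alone. The 5 tested genes of the class without a one-direction peak had 2 higher, 0 lower and a median of 0.77. All 5 had a divergent peak, so they are not genes without a Glis3 peak at the promoter. Edem1, which marks misfolded proteins for removal, rose from 64.9 ± 9.37 CPM (SD, n = 4) to 113 ± 12.4 CPM (n = 3), a log2 change of 0.80 ± 0.14 (SE, edgeR adjusted p = 0.00128). Atf4, a transcription factor of the stress response, fell from 233 ± 18.6 CPM (SD, n = 4) to 158 ± 8.08 CPM (n = 3), a log2 change of -0.56 ± 0.12 (SE, edgeR adjusted p = 0.00594) that was lost with library size alone (0.102), and Xbp1 (-0.20) and Canx (0.03) had no call. Chaperones and disulfide isomerases made up the other rises (Hspa5, Calr, Dnajc3, Pdia4 and Pdia6), each of which lost its call without labelled knockout 3, at adjusted p of 0.0765, 0.12, 0.112, 0.057 and 0.0787. Calr also lost it without control 2 (0.117), labelled knockout 1 (0.074) or 2 (0.17), Dnajc3 without control 1 (0.0517) or 2 (0.0631), and Pdia6 without control 2 (0.0681), labelled knockout 1 (0.0711) or 2 (0.108). The count of 6 was 4 without control 2 or labelled knockout 1 or 2 and 1 without labelled knockout 3.

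Cholesterol and fatty acid synthesis genes with a peak fell in most cases. Of 15 linked genes 10 fell, none rose and 5 had no call, with a median log2 change of -0.67. The 0 rises were also 0 with DESeq2 and with limma-voom, and 0 at an unadjusted edgeR p under 0.05. Hmgcs1, an early enzyme of the cholesterol pathway, had its peak 284 bp upstream and stood at 53.8, 53.6, 51.6 and 55.6 CPM in the controls and 31, 25.1 and 26.1 CPM in the labelled knockouts. Insig1, which holds back the pathway when sterols are plentiful, stood at 96, 97.6, 86.2 and 79.2 CPM in the controls and 56, 31.6 and 36.2 CPM in the labelled knockouts. In both genes each labelled knockout was below each control, with a log2 change of -0.97 ± 0.12 (SE, edgeR adjusted p = 9.69e-05) for Hmgcs1 and a log2 change of -1.13 ± 0.17 (SE, edgeR adjusted p = 0.000648) for Insig1. Srebf2, the transcription factor that drives the pathway, fell from 92.1 ± 14.4 CPM (SD, n = 4) to 49.6 ± 9.4 CPM (n = 3), a log2 change of -0.90 ± 0.16 (SE, edgeR adjusted p = 0.00159). Cyp51, an enzyme of sterol synthesis, and the desaturase Scd2 fell by 0.79 and 0.64 on the log2 scale. Fdps and Fasn were lower too, but Fdps lost its call without labelled knockout 3 (0.0735), control 2 (0.0584) or control 3 (0.0533), and Fasn without labelled knockout 1 (0.0787) or 3 (0.0829) or control 2 (0.0772) or 3 (0.0608). With library size alone 4 genes were called lower, and the median was -0.5. Of the 8 tested genes of the class without a one-direction peak, 1 was lower and 1 was higher, with a median of -0.24. A divergent peak was present at 3 of these 8.

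Ribosomal protein and oxidative phosphorylation genes with a peak were called in a single direction. Of 54 tested linked ribosomal protein genes 16 were higher and none was lower, with a median log2 change of 0.39; the 27 without a one-direction peak had 5 higher, none lower and a median of 0.35. Of 46 tested linked oxidative phosphorylation genes 15 were higher and none lower, with a median of 0.37, beside 6 higher and 1 lower of 34 without such a peak and a median of 0.34. A divergent peak only was present at 13 ribosomal protein and 22 oxidative phosphorylation entries, tested or not. In neither class was a linked gene called lower by DESeq2 or limma-voom, and at an unadjusted edgeR p under 0.05 0 of either class were lower. Ndufb8 and Ndufa12, subunits of complex I, rose from 82.2 ± 14.3 CPM (SD, n = 4) to 135 ± 8.32 CPM (n = 3), and from 33.9 ± 9.36 CPM (SD, n = 4) to 63.8 ± 5.76 CPM (n = 3). Atp5g2, a subunit of ATP synthase, rose from 50.9 ± 4.37 CPM (SD, n = 4) to 75.3 ± 1.36 CPM (n = 3). Their log2 changes were 0.71 ± 0.14, 0.92 ± 0.18 and 0.56 ± 0.11 (edgeR adjusted p = 0.00348, 0.00366 and 0.00346). The counts of calls rested on single libraries: the 16 ribosomal protein genes became 5 without control 2, 4 without control 3, 27 without control 4, 4 without labelled knockout 1 and 2 without labelled knockout 3. The 15 oxidative phosphorylation genes became 9 without control 1 or control 3, 8 without control 2 or labelled knockout 1, and 5 without labelled knockout 3. With library size alone they were 50 and 34, and the medians 0.59 and 0.56. With the replicate block they were 43 and 31, and the medians 0.52 and 0.47. Rplp0, a protein of the ribosomal stalk, stood at 587, 581, 699.8 and 767 CPM in the controls and 976, 910.3 and 1060 CPM in the labelled knockouts, a log2 change of 0.58 ± 0.13 (SE, edgeR adjusted p = 0.0103) that became 0.0589 without labelled knockout 3. Ribosomal protein genes have many processed copies, among which reads can be split.

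Further classes were called in both directions or in few members. Over all tested genes 5.25% were lower and 8.73% were higher. The counts of zinc finger genes and of proteasome and ubiquitin genes lay near or under these shares. Of 58 tested linked genes of the splicing and hnRNP class 1 was lower and none was higher (edgeR), with a median log2 change of -0.05. DESeq2 called 2 higher, limma-voom 1, and 4 were higher at an unadjusted edgeR p under 0.05. The gene called lower was Lsm14a, a member of the class as listed, whose part in splicing was not examined. Lsm14a had a log2 change of -0.51 ± 0.14 (SE, edgeR adjusted p = 0.0286), with 0.0605 to 0.0951 without control 1, 2 or 3 or labelled knockout 1 or 2, and 0.235 with library size alone. Srsf6, a splicing factor with its peak 213 bp downstream, stood at 169.5, 174, 196 and 179.6 CPM in the controls and 178, 171 and 173 CPM in the labelled knockouts, with overlapping groups. Of 66 translation factor and tRNA synthetase genes 1 was lower and 4 were higher, of 99 proteasome and ubiquitin genes 6 and 3, and of 37 mitochondrial ribosomal protein genes 1 and 2. With library size alone the proteasome and ubiquitin counts were 0 lower and 13 higher, and with DESeq2 8 and 10. These small counts moved with single libraries too: the proteasome and ubiquitin counts ran from 0 (without labelled knockout 1) to 6 lower and from 0 (without control 2 or labelled knockout 1) to 6 (without control 4) higher, and the 4 translation genes became 2 without control 1, 2 or 3 or labelled knockout 1, and 1 without labelled knockout 3. Of 248 tested linked zinc finger protein genes 16 were lower and 3 were higher, with a median of -0.23, and the 158 without a one-direction peak had 5 and 1 and a median of -0.26. A divergent peak only was present at 33 zinc finger entries, tested or not. The 16 lower linked zinc finger genes were 10, 8 and 10 without control 1, 2 and 3, and 4 with library size alone. Zfp91 fell by 0.73 and, besides Zfp423 above, Zfp330 and Zfp365 rose by 0.73 and 1.05 on the log2 scale. Of 143 solute carrier genes 16 were lower and 8 higher, the 8 becoming 5 without control 2 or 3 and 4 without labelled knockout 2. With library size alone the balance turned, to 6 lower and 20 higher. Slc4a7, a bicarbonate transporter, fell from 91.5 ± 10.1 CPM (SD, n = 4) to 44.3 ± 9.89 CPM (n = 3), and Slc22a17 rose from 88 ± 6.01 CPM (SD, n = 4) to 164 ± 15.1 CPM (n = 3). Of 45 cilium and centrosome genes 2 were lower and 2 higher. The 2 higher were Dnah9, an axonemal dynein with its peak 221 bp downstream, and Rfx6. Rfx6 is described above with the islet transcription factors, and its call depended on single libraries. Dnah9 stood at 12.1, 16.8, 11 and 10.2 CPM in the controls and 107, 103 and 80.7 CPM in the labelled knockouts, a log2 change of 2.94 ± 0.17 (SE, edgeR adjusted p = 2.08e-07). Of 16 cell cycle genes 2 were lower (Ccnd2 and Cdkn2c) and 1 was higher (Ccne1). Cdkn2c had an edgeR adjusted p of 0.0344, with 0.0566 without control 1, 0.132 without control 2, 0.107 without labelled knockout 1 and 0.0711 without labelled knockout 2. Ccne1 had an edgeR adjusted p of 0.0305, with 0.0753 without control 1, 0.0636 without control 3, 0.0832 without control 4 and 0.149 without labelled knockout 2. The proliferation marker Mki67 (0.14) and Pcna (0.20) had no call.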

How the data were processed

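The members and gene lists were chosen with earlier results of these data known. The authors deposited whole-number counts per gene, 1 column per RNA library, and a list of 200 bp peak positions without scores. STAR 2.5, featureCounts 1.5.0-p1, Bowtie 1.2, HOMER 4.9.1 and build mm10 are named per the submitters' processing notes; their settings, the counting strand, the peak threshold and the use of the input library are not given in the sources used here, and the input was not analysed here. Without strand, reads of overlapping genes cannot be told apart.

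Each peak midpoint (start + 100) was set against the 5′ ends of the 25611 entries of the gene table, 988 of which repeat a symbol. Counts of 4 control and 3 labelled knockout libraries (separate mice, per the labels) were compared with edgeR 4.0.16 in R 4.3.3: filterByExpr, TMM factors, robust quasi-likelihood F test, Benjamini-Hochberg adjustment over 14529 genes, threshold 0.05. Log2 changes are labelled knockout over control. The fit was tested on simulated data. Levels are not compared between genes, since no transcript length was used. No 2 libraries of a group were copies: chi-square per degree of freedom was at least 23.4. Same-numbered libraries were not paired in the main fit, since the labels do not say whether they belong together. Correlations between their deviations were 0.095, 0.06 and 0.064, each the highest of that control.

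Named genes are the 12 largest falls and rises among called linked genes with at least 1 CPM and no overlap, up to 3 called members per class, the 5 with most peaks or highest control CPM, and Glis3 with a list of islet genes; other class members were named after their values were seen. Values of some of these genes are not reported here, though class counts include them. The fit was repeated with library size alone, RLE factors, all genes kept, 1 CPM in 3 libraries, DESeq2 1.42.0, limma-voom (limma 3.58.1), a replicate block, leaving out each library, a threshold of 0.01, windows of 500 bp and 2 kb, the nearest 5′ end only and, chosen after seeing the data, Xist as a covariate and RefSeq starts.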

Additional observations from a re-analysis of the deposited data

Results flagged for a closer look

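Of 93 values examined over the 4 control libraries, 2 had a library far from the other 3, where chance flags about 1 in 20. Ube2q2, a ubiquitin-conjugating enzyme with peaks 303 bp upstream and 821 bp downstream, stood at 40.09 CPM in control 1 and at 34.32 to 35.2 CPM in the other controls. Without control 1 its call was kept; it was lost without labelled knockout 1, at an edgeR adjusted p of 0.0573. Lmo1 stood at 3.159 CPM in control 4 and at 2.07 to 2.237 CPM in the other controls, against at least 22.4 CPM in each labelled knockout.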

How the results depend on the processing

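Of 1350 values of 90 named genes under 15 alternative fits, 1252 kept direction and side of the threshold, 83 lost the call, 10 gained it and 5 turned; 60 genes had no change. Library size alone changed most: 218 linked genes were lower and 982 higher, and the median log2 change turned from -0.047 to 0.122, with that of all genes at 0.175. There the Srsf6 log2 change turned to 0.131. The median was -0.064 with no filter on low counts, -0.041 with 1 CPM in 3 libraries, -0.059 with limma-voom and -0.058 with the replicate block, under which 583 were lower and 723 higher. Under that block Glis3 (adjusted p = 0.0505) and Ccne1 (0.0768) lost their calls, and Glis1 (0.0162), Ucn3 (0.00265) and Glp1r (0.00328) passed the threshold. The labels do not say whether same-numbered libraries belong together. Controls 1, 2 and 3 each correlated most with the labelled knockout of the same number (0.095, 0.06 and 0.064). Control 4, which has no partner, correlated most with labelled knockout 3 (0.104). At an adjusted p under 0.01 there were 244 and 363. DESeq2 called 780 lower and 792 higher, and Xist as a covariate 636 and 745. Leaving out each library gave 381 to 579 lower, 465 to 592 higher and a median of -0.072 to -0.039. The 1190002N15Rik log2 change, 0.027 with all libraries, went to -0.022 with the replicate block and ranged from -0.042 to 0.104 with a library left out. The median offset was 92 bp within 500 bp, 114 bp within 2 kb and 97 bp from RefSeq starts, over 8206, 9609 and 7243 peaks. The cause of these shifts was not tested. Counts limit low genes: 3 counts were 0.223 CPM in labelled knockout 1. With 1 peak list, no binding value has a replicate, and with 4 against 3 mice calls depend on single libraries.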
